A study of Mus musculus with 28 samples.

Results

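The miR-148 and miR-152 family in mouse is a set of 3 microRNAs (miRNAs), miR-148a-3p, miR-148b-3p and miR-152-3p, read here as the miRNA rows of those names in small RNA of sperm. They were chosen by the family's miRNA counts, lower as a whole in sperm of mice lacking Nrf2 in the liver than in sperm of floxed mice, and they are 3 of the 1408 miRNAs with a row in any of the 3 count tables used. Rows for all 3 were read in the flox and liver knockout table (819 miRNA rows). Rows for miR-148a-3p and miR-148b-3p were also read in the wild type table (1127 rows) and in the table of Nrf2-/- mice (899 rows). miR-152-3p was not analysed here in the wild type and Nrf2-/- sperm.

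A miRNA guides a silencing complex to messenger RNAs that pair with its seed, the bases near its 5′ end, and miRNAs with the same seed are expected to recognise many of the same messages. miR-148a is abundant in the liver, where it has been reported to target the LDL receptor and the cholesterol exporter ABCA1, and the family is best known for targeting the maintenance DNA methyltransferase DNMT1, reported mostly in human cells. Nrf2 activates genes of antioxidant defence and detoxification as a transcription factor, and sperm take up part of their small RNA from the epithelium of the epididymis.

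Small RNA from sperm was sequenced in 28 libraries made from Trizol-extracted total RNA with a Qiaseq small RNA kit. Nrf2 LKO mice (4 libraries) carried floxed Nrf2 and Albumin-Cre, whose promoter drives recombination in hepatocytes, and Nrf2 flox mice (4 libraries) carried floxed Nrf2 and are the labelled control. Nrf2-/- mice, which lack the gene in all cells, gave 4 libraries after ethanol and 4 control libraries without alcohol. Wild type (WT) mice gave 4 unexposed control libraries, 4 at a low, 2 at a medium and 2 at a high dose of alcohol. The sources used here do not give ages, the amounts behind the doses or whether animals were pooled, so p-values measure the spread between these libraries.

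Libraries held 1993933 to 11119711 counts, of which 227577 to 2744712 fell on miRNA rows. Exons of all 9 sperm and spermatid markers (among them the protamines Prm1 and Prm2) were above 0 in every library, and markers of other cells were present too. The summed exon counts of Nfe2l2, the gene of Nrf2, were 0 to 22 reads per library in LKO sperm and 9 to 20 in flox sperm, 1 to 10 in Nrf2-/- ethanol and 0 to 20 in Nrf2-/- control sperm, and 4 to 47 in WT sperm. These reads were too few to check the genotypes, the sources used here do not name the deleted part of the gene, and an Albumin-Cre deletion is made in the liver. The 3 tables come from differently named library sets, so genotypes in different tables cannot be told apart from those sets. Tests were made within a table, except the interaction of genotype and alcohol, which joins the WT and Nrf2-/- tables.

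The mature sequences (RefSeq, GRCm38.p6) are shown because the members differ at few bases, and only those bases and the length tell their reads apart. They run 5′ to 3′, and capitals mark the seed at bases 2 to 8. Bases are counted from 1 at the 5′ end.
mmu-miR-148a-3p: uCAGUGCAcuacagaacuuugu
mmu-miR-148b-3p: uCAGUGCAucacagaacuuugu
mmu-miR-152-3p: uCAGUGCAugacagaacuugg
mmu-miR-130a-3p: cAGUGCAAuguuaaaagggcau
The 3 members share the seed, and they are the only 3 of 1679 mature mouse miRNAs in the RefSeq table with it. Between miR-148a-3p and miR-148b-3p the differences are C9U and U10C, over 22 compared positions. Between miR-148a-3p and miR-152-3p they are C9U, U10G and U20G, over 21 compared positions, and miR-152-3p is 1 base shorter. Between miR-148b-3p and miR-152-3p they are C10G and U20G. miR-130a-3p is shown because its seed holds 6 bases of the family seed, shifted by 1 position, and 7 of the 1679 mature miRNAs carry that seed.

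The 3 members come from separate loci. miR-148a-3p lies at chr6:51269829-51269850 on the minus strand, and its hairpin overlaps no protein-coding gene in the GENCODE annotation. miR-148b-3p lies at chr15:103285185-103285206 on the plus strand, in an intron of Copz1, which encodes a subunit of the coatomer that coats Golgi vesicles. miR-152-3p lies at chr11:96850439-96850459 on the plus strand, in an intron of Copz2, a paralog of Copz1. Because the mature strands are nearly identical and the sources used here do not say how reads with several matches were treated, reads with sequencing errors or trimmed ends could be counted for the wrong member.

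In liver knockout sperm miR-148a-3p and miR-152-3p were at lower average levels than in flox sperm, and miR-148b-3p was at a similar level. These are the values by which the family was chosen, so they are given as a description with no test. Levels are CPM, read counts set to a common total of miRNA counts and scaled within a table by the trimmed mean of M-values (TMM). Over all miRNAs, edgeR's quasi-likelihood test called 0 of 295 (0%) at an adjusted p under 0.05, with 40 at an unadjusted p under 0.05, and DESeq2's Wald test also called 0.

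miR-148a-3p was at 508, 286, 2132 and 1496 CPM in the 4 LKO libraries, and at 2504, 1892, 5663 and 4609 CPM in the 4 flox libraries. It averaged 1106 ± 863 CPM in LKO and 3667 ± 1768 CPM in flox sperm (SD, n = 4 each), a log2 fold change of -1.73, or 0.302 times the flox level. LKO libraries 1, 2 and 4 lay below every flox library, and LKO library 3 lay above flox library 2, so the groups overlapped.

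miR-152-3p was at 603, 597, 1095 and 801 CPM in LKO sperm, against 1574, 814, 2318 and 1615 CPM in flox sperm. Its averages were 774 ± 234 CPM in LKO and 1580 ± 615 CPM in flox sperm (SD, n = 4 each), with a log2 fold change of -1.03. Here too 3 of 4 LKO libraries lay below the lowest flox library, and library 3 of the LKO group stood above flox library 2.

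miR-148b-3p was at 1099, 817, 1053 and 1257 CPM in LKO sperm and at 793, 1257, 938 and 1441 CPM in flox sperm. Its averages of 1057 ± 182 CPM in LKO and 1107 ± 295 CPM in flox sperm (SD, n = 4 each) gave a log2 fold change of -0.07. All 4 LKO libraries lay within the range of the flox libraries. Leaving out flox library 4 turned this small difference to 0.09 on the log2 scale, and leaving out LKO library 2 to 0.02.

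**Figure D1:**
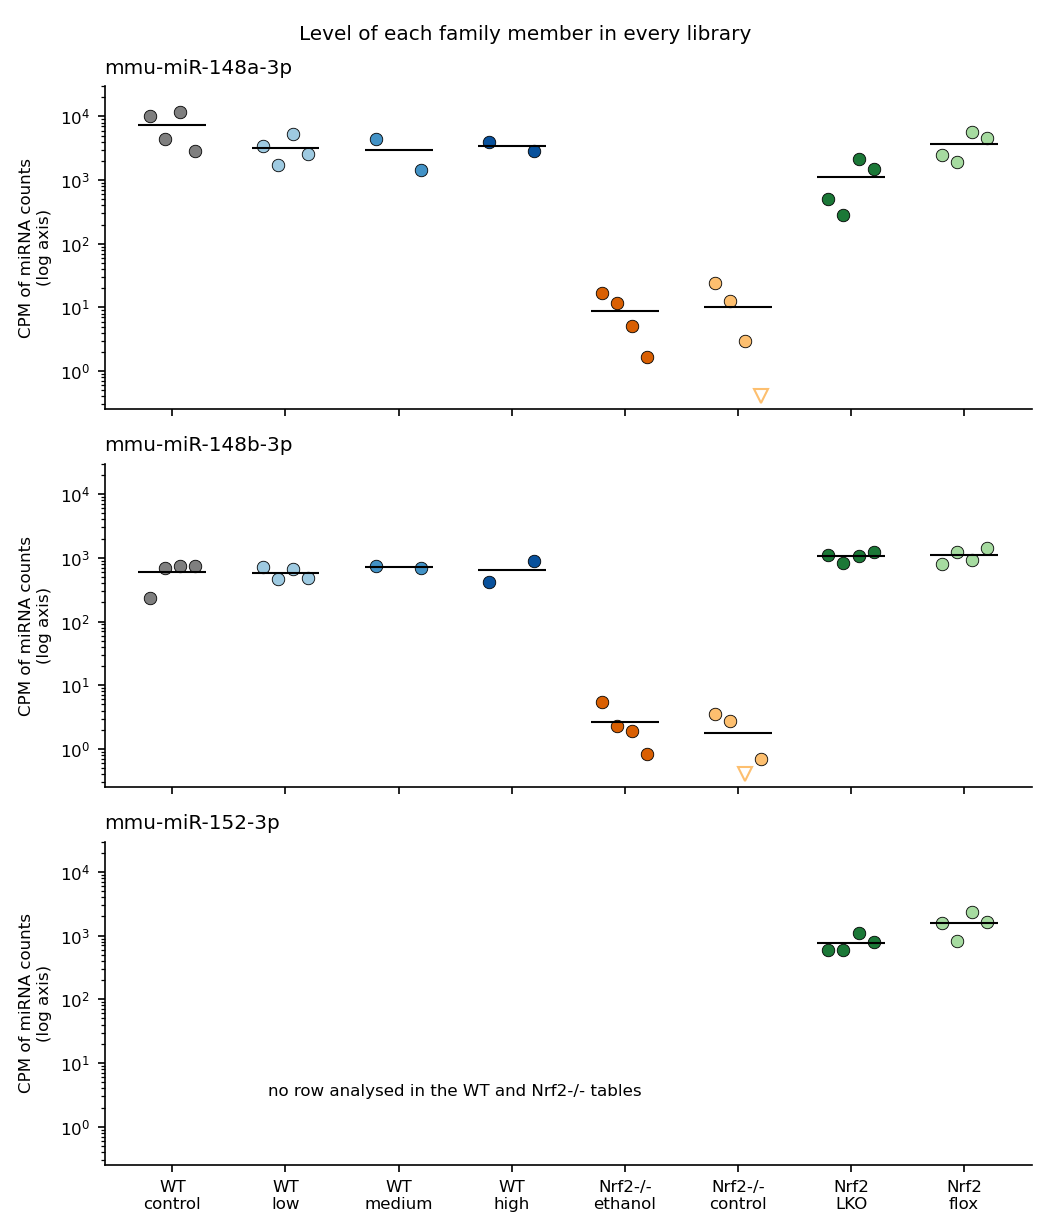
Level of miR-148a-3p, miR-148b-3p and miR-152-3p in each library, in CPM of miRNA counts on a log axis, with 1 point per library and a bar at the group mean; open triangles mark libraries with a count of 0. miR-148a-3p spans 286 to 2132 CPM in LKO and 1892 to 5663 CPM in flox sperm, miR-148b-3p spans 817 to 1257 CPM in LKO and 793 to 1441 CPM in flox sperm, and both members lie below 25 CPM in all Nrf2-/- libraries.

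The members differed between LKO and flox sperm to unlike degrees, so the average make-up of the family differed as well. This make-up comes from the counts by which the family was chosen, and it is given as a description with no test. Within a library the ratio of miR-148a-3p to miR-148b-3p reads does not depend on library size or scaling. It was 0.463, 0.350, 2.02 and 1.19 in the 4 LKO libraries, against 3.16, 1.51, 6.04 and 3.20 in the 4 flox libraries. LKO library 3 lay above flox library 2 in this ratio also, and the other 3 LKO libraries lay below all flox libraries.

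miR-148a-3p made up 16.8% to 49.8% of the family's reads in LKO and 47.8% to 63.5% in flox sperm. miR-148b-3p made up 24.6% to 49.7% in LKO and 10.5% to 31.7% in flox sperm. The share of miR-152-3p was 22.5% to 35.1% in LKO and 20.5% to 32.3% in flox sperm, and the shares of all 3 members overlapped between the groups. The levels of all 3 members added up to 2936 ± 1189 CPM in LKO and 6354 ± 2326 CPM in flox sperm (SD, n = 4 each).

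**Figure D2:**
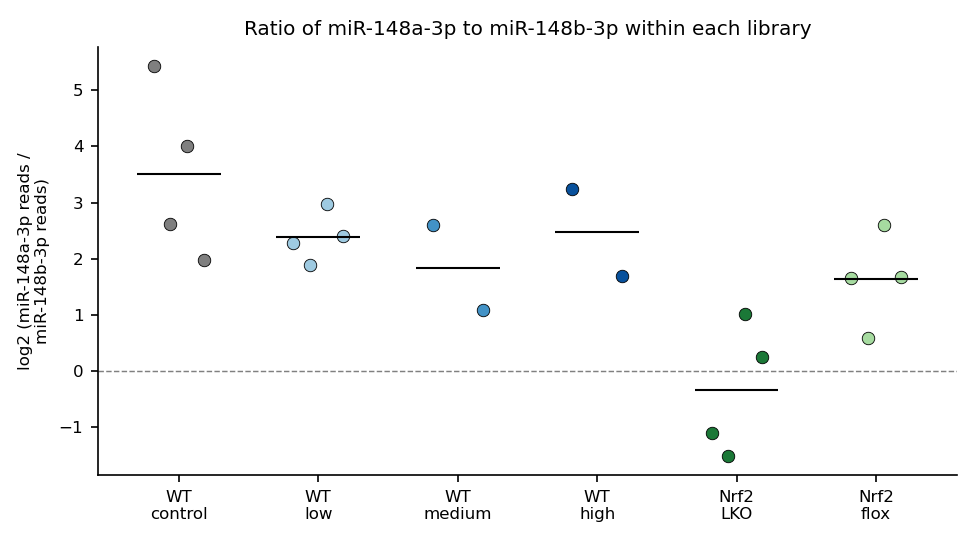
The log2 ratio of miR-148a-3p to miR-148b-3p reads within each library of the WT, LKO and flox groups, with 1 point per library and a bar at the group mean of the log2 ratios; the dashed line marks equal reads. The LKO libraries average -0.34 and the flox libraries 1.63, and WT control libraries reach from 1.97 to 5.43. Nrf2-/- libraries are not drawn, since they held at most 15 reads of miR-148b-3p.

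Markers of epididymis epithelium were also lower in LKO than in flox sperm, and within LKO sperm their order matched that of miR-148a-3p only in part. The summed exons of 11 epididymis markers were at 188, 272, 502 and 159 CPM of all counts in LKO sperm, against 649, 679, 807 and 630 CPM in flox sperm. Most of these reads came from Crisp1 (9887) and Cd52 (2122), while the lipocalins Lcn5 and Lcn8 had 305 reads and 1 read. Within LKO sperm, library 3 had the highest sum and the most miR-148a-3p, at 2132 CPM. Library 4 had the lowest sum but 1496 CPM of miR-148a-3p, and library 2 had the lowest miR-148a-3p, at 286 CPM. Within flox sperm, library 3 was highest in both, with 5663 CPM of miR-148a-3p. The LKO and flox sums did not overlap, with 4 to 7 of the 11 markers above 0 in LKO and 6 to 9 in flox libraries. The share of all exon rows without overlap was not computed, and 61.6% of 5319 exon rows had log2 fold changes below 0 in LKO sperm. miR-200b-3p, a miRNA of epithelial cells, was at 1482 ± 606 CPM in LKO and 2887 ± 574 CPM in flox sperm (SD, n = 4 each).

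Summed exons of 7 smooth muscle and fibroblast markers spanned 98.4 to 159 CPM in LKO and 152 to 332 CPM in flox sperm. Summed exons of 5 hepatocyte markers spanned 5.19 to 64.1 CPM in LKO and 20.04 to 89.0 CPM in flox sperm. In bulk libraries fewer cells of a type and less RNA per cell cannot be told apart, and the part of these markers in the levels of miR-148a-3p and miR-152-3p was not tested.

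**Figure D3:**
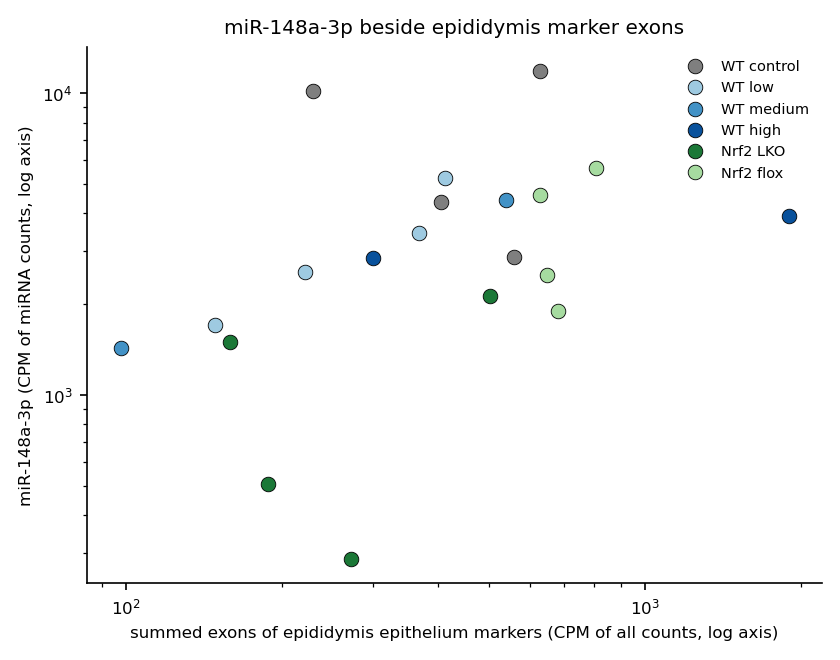
miR-148a-3p (CPM of miRNA counts) against the summed exons of 11 epididymis epithelium markers (CPM of all counts) in the WT, LKO and flox libraries, both on log axes, with 1 point per library. The LKO libraries lie at 159 to 502 CPM of marker exons and the flox libraries at 630 to 807 CPM, and within the WT table the library with the most marker exons, high dose library 1 at 1893 CPM, is not the one with the most miR-148a-3p.

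In WT sperm the question was whether alcohol changed the family at any dose. miR-148a-3p was lower on average at each dose than in controls, but no dose passed the threshold. miR-148b-3p stayed within its control range at the low and medium doses, but the lower end of that range was set by control library 1 alone. edgeR's quasi-likelihood test called 0 of 338 miRNAs (0%) at each dose and for the mean of the 3 doses, with 41, 9 and 9 at an unadjusted p under 0.05 for the low, medium and high dose and 38 for the mean. DESeq2's Wald test called 24, 7 and 7 miRNAs for the low, medium and high dose and 20 for the mean, and neither family member was among them.

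miR-148a-3p was at 10135, 4346, 11816 and 2878 CPM in the 4 WT control libraries and at 3447, 1711, 5254 and 2555 CPM in the 4 low-dose libraries. It was at 4443 and 1436 CPM in the 2 medium-dose libraries and at 3913 and 2854 CPM in the 2 high-dose libraries. All 8 alcohol libraries lay below the control median of 7240 CPM, and 4 of the 8 lay below the lowest control. The controls split widely, with libraries 1 and 3 above every alcohol library and libraries 2 and 4 within the range of the alcohol libraries. These places hold for TMM-scaled levels.

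The log2 fold change of miR-148a-3p was -1.17 ± 0.58 at the low dose (SE; adjusted p = 0.430, edgeR's quasi-likelihood test). It was -1.31 ± 0.75 at the medium dose (SE; adjusted p = 0.796) and -1.11 ± 0.74 at the high dose (SE; adjusted p = 1.00) in the same edgeR fit. The medium value was -2.17 without medium-dose library 1 and -0.63 without medium-dose library 2. For the mean of the doses against control it was -1.20 ± 0.50 (SE), with an unadjusted p of 0.0363 and an adjusted p of 0.427 by edgeR. Group means of 3242 ± 1517 CPM at the low dose (SD, n = 4), 2939 ± 2126 CPM at the medium dose (SD, n = 2) and 3384 ± 749 CPM at the high dose (SD, n = 2) lay within each other's spread and showed no order by dose, against 7294 ± 4348 CPM in controls (SD, n = 4).

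WT controls 1 and 3, the 2 controls with the most miR-148a-3p, had the lowest miRNA totals of the WT table (473836 and 227577 counts). The part of these totals in the difference was not tested. Over all classes control 1 had the highest total (11119711 counts, 4.26% of them miRNA) and control 3 the lowest (1993933 counts). Without these 2 libraries, an omission chosen after the data were seen, the change for the mean of the doses was -0.19 ± 0.54 (SE; adjusted p = 0.996, edgeR). Leaving out the 2 highest controls had to bring the change nearer to 0, so this value cannot tell whether they were unusual. With single libraries left out the change was -1.50 to -0.87. The TMM factor of WT control 4 was 1.98, and its miR-148a-3p level was 5702 CPM of miRNA counts without that factor, against 2878 CPM with it. Low-dose library 3, the highest alcohol library, was at 5125 CPM without its factor. The place of control 4 among the alcohol libraries thus depended on the scaling. With miRNA totals and no TMM factor, the change for the mean of the doses was -1.40 ± 0.49 (SE; adjusted p = 0.261, edgeR), while the median of all 338 miRNAs stood at -0.68, against -0.21 with TMM.

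miR-148b-3p was at 235, 705, 731 and 735 CPM in WT controls and at 714, 462, 671 and 482 CPM in low-dose sperm. It was at 733 and 681 CPM at the medium dose and at 415 and 881 CPM at the high dose. Control library 1 lay far below the other controls, with 102 reads, and 7 of the 8 alcohol libraries lay within the control range. Without control 1 that range would be 705 to 735 CPM. The alcohol libraries at 462, 671, 482, 681 and 415 CPM lay below it, those at 714 and 733 CPM within it and that at 881 CPM above it.

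The log2 fold change of miR-148b-3p was -0.05 ± 0.44 at the low dose (SE; adjusted p = 0.977, edgeR), with both signs among the alternatives run. It was 0.23 ± 0.53 at the medium dose (SE; adjusted p = 0.990), 0.11 ± 0.53 at the high dose (SE; adjusted p = 1.00) and 0.10 ± 0.39 for the mean of the doses (SE; adjusted p = 0.957) in the same edgeR fit. The sign of the last 3 turned negative without control library 1 or with miRNA totals and no TMM factor, and none is given as a direction.

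**Figure D4:**
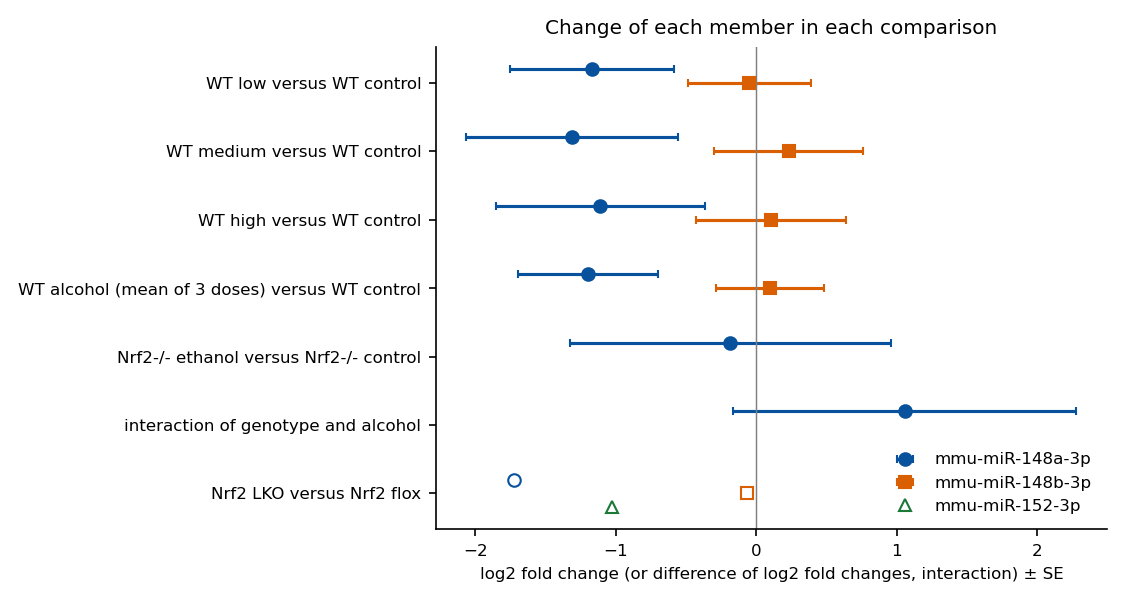
Log2 fold change of each member in each comparison, or the difference of log2 fold changes for the interaction of genotype and alcohol, with bars of ± 1 SE from edgeR; open symbols without bars are the LKO and flox values, which are descriptions. miR-148a-3p lies between -1.31 and -1.11 at the WT doses with wide bars, and miR-148b-3p lies close to 0.

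The ratio of miR-148a-3p to miR-148b-3p reads was 43.0, 6.16, 16.2 and 3.92 in WT controls and 4.83, 3.70, 7.83 and 5.30 in low-dose sperm. It was 6.06 and 2.11 at the medium dose and 9.43 and 3.24 at the high dose. Controls 1 and 3 stood above every alcohol library, while controls 2 and 4 lay among them. The value of 43.0 in control 1 came from both a high miR-148a-3p and the lowest miR-148b-3p of the table.

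Other markers also varied in the WT table. miR-200b-3p averaged 6973 ± 5504 CPM in controls (n = 4), 3369 ± 854 CPM at the low dose (n = 4), 2419 ± 1424 CPM at the medium dose (n = 2) and 3092 ± 1366 CPM at the high dose (n = 2, SD in each). The summed epididymis exons spanned 230 to 628 CPM in controls, 148.5 to 412 CPM at the low dose, 97.7 to 540 CPM at the medium dose and 299 to 1893 CPM at the high dose. Summed red blood cell exons were at 34.7 to 63.8 CPM in low-dose libraries and at 1.89 to 13.5 CPM in controls, without overlap. The share of all exon rows without overlap was not computed here either. The part of these markers in the miR-148a-3p levels was not tested.

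In Nrf2-/- sperm the family had few reads. miR-148a-3p had 47, 26, 8 and 2 reads in ethanol libraries, which are 17.1, 11.7, 5.02 and 1.68 CPM. In control libraries it had 68, 37, 3 and 0 reads, which are 24.4, 12.8, 2.94 and 0 CPM, and a count of 0 in control 4 allows up to 2.06 CPM at a floor of 3 reads. The ethanol libraries lay within the control range. Markers split the controls in the same way. The summed epididymis exons were at 334, 269, 186 and 434 CPM in the ethanol libraries, against 1570, 1314, 53.8 and 37.1 CPM in the controls. Summed sperm and spermatid exons were at 204, 263, 231 and 276 CPM in the ethanol libraries and at 155, 196, 681 and 868 CPM in the controls. Controls 1 and 2 thus had the highest epididymis exons, the lowest sperm exons and the most miR-148a-3p of the 4 controls, and the part of these markers in its levels was not tested.

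edgeR's quasi-likelihood test called 0 of 237 miRNAs (0%) between ethanol and control in Nrf2-/- sperm, with 3 at an unadjusted p under 0.05, and DESeq2's Wald test called 0. The log2 fold change of miR-148a-3p was -0.18 ± 1.14 (SE; adjusted p = 0.997, edgeR), from 0 to 68 reads per library. Its sign turned with a replicate block or without ethanol library 3, ethanol library 4 or control library 1.

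miR-148b-3p had 15, 5, 3 and 1 reads in Nrf2-/- ethanol libraries, against 10, 8, 0 and 1 reads in control libraries, and it did not pass the filter on low counts in that table, so no response or interaction is given for it. For miR-148a-3p the interaction, the ethanol response in Nrf2-/- sperm minus the mean response in WT sperm, was 1.06 ± 1.22 (log2 ± SE; adjusted p = 0.871, edgeR). It was -0.11 without WT controls 1 and 3 and 0.55 to 1.93 with single libraries left out. edgeR called 0 of 372 miRNAs (0%) for the interaction, with 19 at an unadjusted p under 0.05, and DESeq2 called 1, which was no family member. The interaction joins the WT and Nrf2-/- tables, so genotype and library set cannot be told apart in it. Its Nrf2-/- side rests on few reads, and the ethanol amount there cannot be matched to a WT dose. Whether the response of miR-148a-3p differed between the genotypes was not resolved.

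Levels as low as those of the members did not extend to most abundant miRNAs in the Nrf2-/- table, though lower levels were common there. Of the 87 miRNAs that averaged at least 300 CPM in both other tables, 56 also averaged at least 300 CPM in the Nrf2-/- table and 7 averaged under 10 CPM, a pair of limits chosen after the values were seen. The ratio of the Nrf2-/- mean to the geometric mean of the other table means was 0.304 at the 44th lowest of the 87. It was 0.999 at the 70th and 1.32 at the 71st. TMM scaling was done within each table, so levels are not on a common scale across tables. miR-148a-3p averaged 9.46 CPM in the Nrf2-/- table, 4566 CPM in the WT table and 2386 CPM in the flox and LKO table. miR-148b-3p averaged 2.19 CPM in the Nrf2-/- table, 620 CPM in the WT table and 1082 CPM in the flox and LKO table.

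By the ratio of the Nrf2-/- mean to the others, miR-148b-3p and miR-148a-3p stood 4th and 5th lowest of the 87. The 3 lower ones, the 3p strands of miR-465a, miR-465b and miR-465c from an X-linked testis cluster, were listed at 0 in all Nrf2-/- libraries. The other 2 under 10 CPM were miR-872-5p at 4.91 CPM and miR-101a-3p at 4.96 CPM. miR-130a-3p, of the shifted seed, spanned 654 to 1657 CPM in the Nrf2-/- table, while miR-301a-3p of the same seed spanned 0 to 4.12 CPM there. The genotype and the library set cannot be told apart in this contrast of tables.

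**Figure D5:**
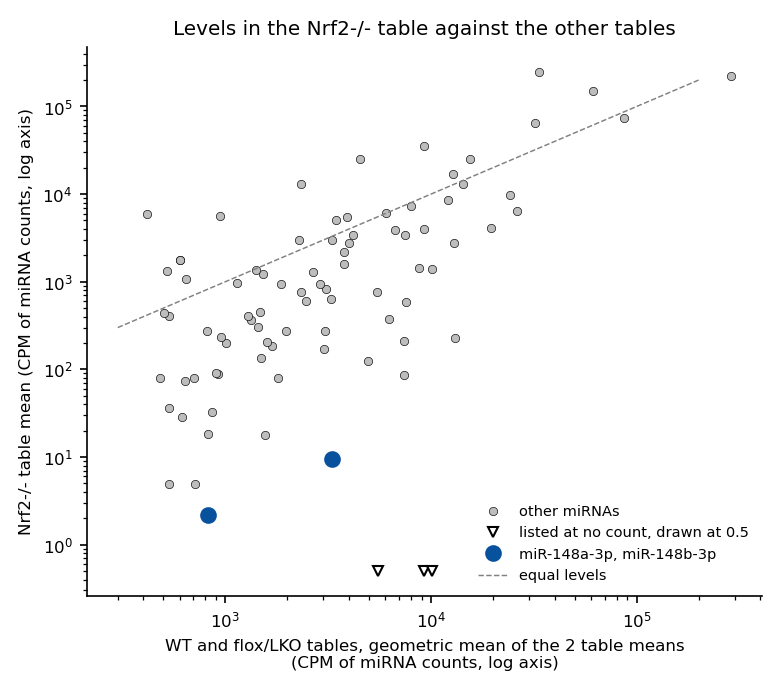
Mean level in the Nrf2-/- table against the geometric mean of the WT table mean and the flox and LKO table mean, in CPM of miRNA counts on log axes, for 87 miRNAs with at least 300 CPM in both other tables; the dashed line marks equal levels and triangles mark miRNAs at 0. miR-148a-3p at 9.46 CPM and miR-148b-3p at 2.19 CPM lie far under the line, and 5 other miRNAs drawn lie under 10 CPM.

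Reads of the family came nearly all from the 3p strand, the one kept as the guide. In the WT table miR-148a-5p, the passenger strand, had 22 reads beside 47426 of miR-148a-3p, or 0.0464% of both. miR-148b-5p had 31 reads there, or 0.378% of both strands, and miR-152-5p had 7 reads. In the flox and LKO table the shares were 0.0875% for miR-148a-5p (12 reads), 0.902% for miR-148b-5p (53 reads) and 0.676% for miR-152-5p (43 reads). Hairpin rows of miR-148a held 3 reads over the LKO and flox libraries, 11 over the Nrf2-/- libraries and 32 over the WT libraries, at most 8 in any library.

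The abundance rank of miR-148a-3p among miRNAs by count ran from 57 to 126 in LKO and from 34 to 57 in flox libraries, and from 19 to 55 in WT libraries. In the Nrf2-/- table it ran from 152 to 361. miR-148b-3p kept ranks of 62 to 91 over the LKO and flox libraries and of 68 to 106 over the WT libraries. miR-152-3p ranked 53 to 96 over the LKO and flox libraries.

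miRNAs that varied like miR-148a-3p over all 28 libraries were sought by the Pearson correlation of log2 CPM after removing group means, among 78 miRNAs with at least 100 CPM on average in each table. The 5 most alike were miR-21a-5p (r = 0.863), miR-29b-3p (r = 0.860), miR-200a-3p (r = 0.850), miR-29c-3p (r = 0.834) and miR-200b-3p (r = 0.817). For miR-21a-5p the values within the WT, Nrf2-/- and LKO tables were 0.855, 0.917 and 0.792, and for miR-29c-3p the WT value was lower, at 0.528. These points share library, depth and scaling, and the values are descriptions.

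miR-148b-3p had weaker likenesses, the highest being miR-200a-3p (r = 0.588), miR-21a-5p (r = 0.535), miR-183-5p (r = 0.529), miR-30b-5p (r = 0.517) and miR-29a-3p (r = 0.516). Its value with miR-200a-3p was -0.19 within the WT table and 0.870 within the Nrf2-/- table, where counts were few. miR-152-3p, over 8 libraries, was most like miR-34a-5p (r = 0.654), miR-200a-3p (r = 0.630), miR-200b-3p (r = 0.623), miR-21a-5p (r = 0.576) and miR-29c-3p (r = 0.565). miR-21a-5p and miR-200a-3p were among the 5 of all 3 members.

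Among the members themselves, miR-148a-3p and miR-152-3p varied together (r = 0.800 over the 8 LKO and flox libraries). miR-148b-3p had r = -0.17 with miR-152-3p over those 8 libraries. Its r with miR-148a-3p was 0.359 there, -0.18 over the 12 WT libraries and 0.804 over the 8 Nrf2-/- libraries, where counts were few. Over all libraries the r of this pair was 0.466. With group means removed in the same way, miR-148a-3p had an r of 0.314 with the summed epididymis exons over the LKO and flox libraries, 0.476 over the WT libraries and 0.771 over the 8 Nrf2-/- libraries. With hepatocyte exons its r was 0.642 over the LKO and flox libraries, and with red blood cell exons -0.67 over the WT libraries. Over all libraries it was -0.72 with sperm, 0.627 with epididymis, 0.439 with leukocyte and -0.36 with red blood cell exons. It was -0.0105 with smooth muscle and fibroblast and 0.00883 with hepatocyte exons. For miR-152-3p it was 0.792 with smooth muscle and fibroblast, 0.728 with hepatocyte, 0.422 with epididymis and -0.67 with sperm exons. The part of any cell type was not tested.

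The miRNAs with the shifted seed were lower in LKO sperm as well, again as a description. All 4 with a row, miR-130a-3p, miR-130b-3p, miR-301a-3p and miR-301b-3p, had negative log2 fold changes, with a median of -0.63 beside 0.03 over all 295 miRNAs, 48.1% of which were below 0. miR-301a-3p was at 96.7, 93.1, 200 and 199 CPM in LKO sperm and at 319, 204, 219 and 356 CPM in flox sperm, a log2 fold change of -0.88. miR-130a-3p was at 900, 1080, 831 and 773 CPM in LKO sperm, against 1548, 1145, 1289 and 1192 CPM in flox sperm, with a log2 fold change of -0.53.

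Neither of these pairs of groups overlapped. Over all 295 miRNAs, 3.39% had every LKO library below every flox library and 1.36% had every LKO library above. For miR-130a-3p LKO library 2 at 1080 CPM and flox library 2 at 1145 CPM lay close together, and for miR-301a-3p LKO library 3 at 200 CPM and flox library 2 at 204 CPM did so. miR-130b-3p (log2 fold change -0.22) and miR-301b-3p (log2 fold change -0.72) did overlap. In WT sperm 0 of the 4 passed the edgeR test for the mean of the doses, with 0 at an unadjusted p under 0.05, and their median log2 fold change was -0.33 beside -0.21 over all 338 miRNAs.

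The host genes were thinly covered. Of all features other than miRNAs, edgeR called 0.0508% of 9836 between LKO and flox sperm, 0.0446% of 17937 at the low dose in WT sperm and 0% at the high dose. Copz1 was not called in WT or Nrf2-/- sperm. Exons of Copz1 averaged 5.09 ± 3.57 CPM of the non-miRNA counts in LKO and 7.44 ± 2.02 CPM in flox sperm (SD, n = 4 each), a log2 fold change of -0.56, given as a description. At the high dose in WT sperm Copz1 exons averaged 4.33 ± 3.04 CPM (SD, n = 2), against 2.07 ± 1.06 CPM in controls (SD, n = 4), with a log2 fold change of 1.07 ± 0.49 (SE; adjusted p = 0.999, edgeR). The 2 high-dose libraries spanned 2.18 to 6.48 CPM and the controls 0.999 to 3.53 CPM, so the groups overlapped. Without high-dose library 1 the log2 fold change was 0.03 (adjusted p = 1.00, edgeR), and without library 2 it was 1.59 (adjusted p = 0.337, edgeR). Exons of Copz2 held at most 3 reads in an LKO library and 4 to 9 reads in flox libraries, and did not pass the filter on low counts within the tables.

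Reported targets of the family were followed in 20 genes, most of them reported in human cells. Their exon reads are fragments in a small RNA library and are not levels of intact messenger RNA. Of the 20, 8 passed the filter on low counts in the flox and LKO libraries, 9 in the Nrf2-/- libraries and 11 in the WT libraries. edgeR called none of them in WT sperm at the low dose, where 0.0332% of 9024 exon rows were called, nor at the medium or high dose or in Nrf2-/- sperm, where 0% were called. At an unadjusted p under 0.05 there were 0 of 11 at the low, 1 at the medium and 0 at the high dose, beside 4.85%, 5.82% and 3.00% of all exon rows, and 1 of 9 in Nrf2-/- sperm, beside 4.41%.

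The median log2 fold change of the tested targets was 0.08 at the low dose beside -0.12 over all exon rows, -0.14 at the medium dose beside -0.21, and 0.17 at the high dose beside 0.10. In Nrf2-/- sperm it was -0.35 beside -0.49 over all exon rows. In LKO against flox sperm it was -0.27 beside -0.18 over all exon rows, where 0.0376% of 5319 exon rows were called.

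The 3 targets with the highest mean level over all libraries were Sik1, a salt-inducible kinase (12.4 CPM), Igf1r, the receptor of insulin-like growth factor (11.4 CPM), and Bcl2l11, a promoter of apoptosis (9.85 CPM). Igf1r averaged 8.56 ± 4.83 CPM in LKO and 15.9 ± 4.43 CPM in flox sperm (SD, n = 4 each), as a description. Bcl2l11 averaged 14.1 ± 1.41 CPM in LKO and 10.7 ± 2.51 CPM in flox sperm (SD, n = 4 each). Dnmt1, the target for which the family is best known, averaged 6.02 ± 3.11 CPM in LKO and 5.70 ± 1.60 CPM in flox sperm (SD, n = 4 each). In Nrf2-/- sperm Dnmt1 averaged 3.95 ± 1.65 CPM after ethanol and 8.75 ± 2.01 CPM in controls (SD, n = 4 each), with a log2 fold change of -1.12 ± 0.44 (SE; adjusted p = 0.767, edgeR).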

How the data were processed

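The deposited values were raw counts of reads for 28 sperm libraries, in 3 tables with 1993933 to 11119711 counts per library. The sources used here do not name the aligner, the counter, the genome build or the treatment of reads with several matches. Counts of rows with 1 feature name were added up within each feature class. Groups follow the labels, also for WT medium library 1, whose count column is named like those of the high dose. miRNAs and all other features were tested apart in R 4.3.3 with edgeR 4.0.16 (quasi-likelihood F test, two-sided, filterByExpr, TMM within the class, Benjamini-Hochberg at 0.05). The 12 WT libraries were fitted together, and the interaction used 20 libraries. Where a count was 0, the floor was taken as 3 reads. Log2 CPM for likeness used a prior count of 2, and summed marker exons use CPM of all counts.

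The members, gene lists, marker lists and tests were chosen with earlier results of these data known. Named features are the members, their passenger strands and hairpins, the host genes, up to 4 listed genes by mean level, Dnmt1 (named after its values were seen) and the 5 miRNAs most like each member. Alternatives were DESeq2 1.42.0 size factors and Wald test, other library sizes, omission of the filter, fits of the compared groups alone, a replicate block, omission of gap miRNAs (listed at 0 in a library whose expected reads were at least 50), another WT side of the interaction and each library left out. The fits were also run on counts simulated at a fixed dispersion without outlying libraries, a simpler setting than these data, and no result here rests on that run. Same-numbered libraries did not deviate together, so numbers were not used as pairs. Floors cover counting error only, while SDs and the SEs of the fits include the spread between libraries. Sequences and their positions come from RefSeq (GRCm38.p6) and host genes from GENCODE. Python 3.11.15 was used for summaries and figures.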

Additional observations from a re-analysis of the deposited data

Results flagged for a closer look

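miR-148b-3p was at 235 CPM in WT control 1, a library far from the other 3 WT controls, which were at 705 to 735 CPM. Copz1 exons were at 4.79 CPM in Nrf2-/- ethanol library 3, set apart from 5.84 to 6.01 CPM in the other 3 ethanol libraries, which lie close together. Of 20 groups checked 2 stood out in this way, and chance sets apart about 1 in 20.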

How the results depend on the processing

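In the WT and Nrf2-/- comparisons and their interaction the members passed no threshold under any alternative run, and the lowest adjusted p was 0.0658, for miR-148a-3p and the mean of the WT doses by DESeq2's Wald test. For miR-148a-3p, log2 changes over the alternatives other than single omissions spanned -1.41 to -0.17 at the low dose, -1.48 to -0.30 at the medium, -1.35 to -0.10 at the high dose and -1.40 to -0.19 for their mean, with the value nearest 0 for the mean coming from WT controls 1 and 3 left out together. The LKO values spanned -2.004 to -1.65 for miR-148a-3p and -1.24 to -0.98 for miR-152-3p. Scaling by miRNA totals without TMM moved the median of all miRNAs in WT sperm to -0.61 at the low dose, -0.56 at the medium, -0.61 at the high dose and -0.68 for the mean. Against flox sperm the LKO median moved to -0.18 with miRNA totals and to -0.30 with the total of all classes. The number of miRNAs called over all was 0 with edgeR; without the filter it was 9 at the low dose, 3 at the medium dose, 7 for the mean, 1 in Nrf2-/- sperm and 2 in LKO sperm, and 2 at the low dose with only the groups compared.

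Sign changes were as follows, and their cause was not tested. For miR-148b-3p at the low dose the change was 0.0255 with DESeq2 size factors, 0.0247 with its Wald test, 0.13 with only the groups compared and 0.0550 without gap miRNAs. At the medium dose it was -0.25 with miRNA totals and -0.0286 without WT controls 1 and 3. At the high dose it was -0.0365 with the total of all classes, -0.44 with miRNA totals, -0.0449 with only the groups compared and -0.17 without WT controls 1 and 3. For the mean of the doses it was -0.0808, -0.42 and -0.17 with the total of all classes, with miRNA totals and without WT controls 1 and 3. The interaction of miR-148a-3p was -0.11 without WT controls 1 and 3.

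The replicate block, which pairs libraries by number, gave 0.0514 for miR-148b-3p at the low dose, 0.41 for miR-148a-3p in Nrf2-/- sperm and -1.01 for miR-148a-3p and the mean of the doses, with no call among the members and 1 of 295 miRNAs called in LKO sperm. Correlations between same-numbered libraries ran from -0.30 to -0.11 for low dose, 0.12 to 0.15 for medium dose and 0.0256 to 0.12 for high dose (2 pairs each), -0.14 to 0.26 for Nrf2-/- and -0.45 to 0.47 for LKO and flox libraries, and no comparison had at least 3 pairs all over 0.1, so the numbers were not taken to pair the samples. Of the 4 pairs a library correlated best with its own number in 0 at the low dose, 1 in Nrf2-/- and 2 in LKO sperm.

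Leaving out 1 library at a time gave, for miR-148a-3p, -1.67 to -0.85 at the low dose, -2.17 to -0.63 at the medium dose, -1.42 to -0.78 at the high dose, -1.50 to -0.87 for the mean, -0.76 to 0.71 in Nrf2-/- sperm, 0.55 to 1.93 for the interaction and -2.25 to -1.35 in LKO sperm. For miR-148b-3p the ranges were -0.25 to 0.15, -0.0486 to 0.34, -0.57 to 0.63 and -0.15 to 0.28 at the low, medium and high dose and for their mean, and -0.17 to 0.0858 in LKO sperm. For miR-152-3p in LKO sperm it was -1.24 to -0.72. Groups of 2 left with 1 library were assumed to vary like the other groups.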
